A study of Mus musculus with 12 samples.

Results

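The 923 array probes whose names begin with ASMM10UP were examined in the left ventricle of transgenic mice. They were 1 of the probe classes of a 1-color expression array for long noncoding RNAs and mRNAs and were chosen by that name alone, out of 60915 probes that were not controls. The names ran without a gap from number 1 to number 923, and each probe had 1 spot on every array. The much larger class of ASMM10P probes, 58141 in all, served as background. The files used here pair neither class with genes, transcripts, sequences or genome positions, and the sources used here do not say what sets the classes apart. Probes are therefore given by name only, and no sequence is shown.

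RNA came from 12 mice on a C57BL/6J background, 3 per group and 1 array per mouse. All 12 carried a cardiac-specific transgene for GRK−β1AR, a β1-adrenergic receptor without the sites that G protein-coupled receptor kinases phosphorylate, so no group stands for a wild-type heart. TG mice carried this transgene alone, whereas double transgenic (DTG) mice also overexpressed miR-150 from a transgene driven by the CAG promoter, which is active in many cell types. Within each genotype, mice received either the β-agonist isoproterenol (ISO) or vehicle, ascorbic acid in saline, for 1 week. The 4 groups are named by genotype and treatment, as in TG vehicle or DTG ISO. Labelled ages were 9 weeks for 2 TG vehicle mice and 12 weeks for the other one, 9 to 10 weeks for TG ISO, 10 weeks for DTG vehicle and 10 to 12 weeks for DTG ISO, and each group held 1 mouse labelled female.

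The β1-adrenergic receptor is the main receptor through which catecholamines raise the rate and force of the heartbeat. Phosphorylation of the receptor by GRKs recruits β-arrestin, which ends G protein signaling and also starts signals of its own, including some that favor survival of cardiomyocytes. A receptor without these sites keeps the G protein arm. MicroRNAs such as miR-150 lower the level or translation of transcripts with matching sites. Arrays for long noncoding RNAs carry many probes for transcripts at low copy number, and ribosomal RNA removal with random-primed amplification, used here, retains transcripts without a poly(A) tail.

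The arrays did not all fall with their groups. Over the 212 ASMM10UP probes that were well above background and measured on all 12 arrays, the array closest to TG vehicle 3 was TG ISO 1 (Pearson r = 0.977 across probes, which are not independent), whereas that closest to TG ISO 3 was DTG vehicle 1 (r = 0.987). DTG vehicle 3 was closest to DTG ISO 1 (r = 0.992). Of the 12 arrays, only DTG ISO 3, TG ISO 1 and TG ISO 2 were closest to an array of their own group. All pairs of arrays correlated between 0.857 and 0.992. The first principal component held 56.7% of the variation, with TG vehicle 3 at one end (score 11.1), next to TG ISO 2 (7.07) and TG ISO 1 (6.80), and DTG ISO 1 at the other (−7.44), next to DTG ISO 2 (−7.06) and DTG vehicle 3 (−6.31). By the scan identifier in the file headers, DTG vehicle 3 shared a scan with all of DTG ISO (scan 1) and TG vehicle 3 with TG ISO 3 (scan 3). The remaining 6 arrays had a scan of their own (scan 2). DTG ISO and TG ISO thus shared no scan. Counts of calls are given with and without TG vehicle 3, TG ISO 3 and DTG vehicle 3, as are probes that led a comparison and whose call in it changed, where the probe was detected in at least 1 of the groups compared. The transgenes and the labelled tissue could not be checked against marker genes, because the probes are not named.

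ASMM10UP probes were detected far less often than ASMM10P probes on every array. A probe counts as detected where Feature Extraction marked its spot as well above background. In TG vehicle 1, 2 and 3, 26.8%, 39.1% and 40.5% of the 923 probes were detected, and in TG ISO 38.1%, 38.9% and 30.8%. In DTG vehicle the shares were 33.8%, 40.6% and 45.3%, and in DTG ISO 42.3%, 45.9% and 56.2%. The lowest and highest arrays were thus TG vehicle 1, with 247 probes, and DTG ISO 3, with 519. Among ASMM10P probes the share ran from 54.6% in TG vehicle 1 to 80.8% in DTG ISO 3. The share of ASMM10UP probes was lower by 28.6 percentage points on average (SD 1.56 over the 12 arrays), with differences of −30.4 to −24.6 points on single arrays, and lower on 12 of 12. An exact sign-flip permutation test over the 12 arrays, two-sided, gave p = 0.000488, the smallest it can give, and 0.000488 after Benjamini-Hochberg adjustment over the 2 class comparisons. This test covers the spread between arrays and not the choice of probes. Of 300 spots named as negative controls within the array design, 1.33% to 14.3% were marked in the same way, so the ASMM10UP shares lay above this background on each array.

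Detection was also less even over the mice. Of the 923 probes, 328 (35.5%) were detected on no array, 380 (41.2%) on 1 to 11 arrays and 215 (23.3%) on all 12. The corresponding shares of ASMM10P probes were 15.1%, 32.4% and 52.5%. Single detections were the commonest outcome between the extremes, with 101 ASMM10UP probes seen on 1 array only. A probe was tested for group differences where it was detected on at least 3 of the 12 arrays, and 444 ASMM10UP probes (48.1%) met this, compared with 75.7% of ASMM10P probes. The other 479 were left untested.

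Signal levels separated the classes in the same way. Levels are log2 intensities relative to the 75th percentile of the array, so that 0 marks a spot as bright as that percentile. The median ASMM10UP probe lay at −5.37, −5.79 and −5.73 in TG vehicle 1 to 3 and at −5.83, −5.79 and −5.81 in TG ISO. It lay at −5.81, −5.62 and −5.31 in DTG vehicle and at −5.29, −5.36 and −5.13 in DTG ISO. These medians sat below the dimmest signal marked as detected on 11 of the 12 arrays; DTG ISO 3 was the exception, where that signal was −5.77. Medians of ASMM10P probes were between −2.77 and −2.53. The difference between the medians averaged −2.92 on the log2 scale (SD 0.20), with ASMM10UP lower on 12 of 12 arrays (exact sign-flip permutation p = 0.000488, two-sided). The size of this difference depended on the handling of dim spots, at −0.81 after normexp background correction, run on the median spot signal with an offset of 50, and −0.90 among probes detected on all 12 arrays, lower for ASMM10UP in both. Only the upper tail of the class was bright. Between 66 and 76 ASMM10UP probes, 7.15% to 8.23%, exceeded the 75th percentile of an array, compared with 25.5% to 25.7% of ASMM10P probes, and 50 did so on all 12 arrays. No ASMM10UP probe was saturated on any array.

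Among the 215 probes detected throughout, variation between mice was close to that of the background class. Their mean level had a median of −1.09, compared with −0.11 for the 30536 ASMM10P probes detected on all arrays. The median SD within groups was 0.35 on the log2 scale for both classes, and the median range over the 12 arrays was 1.19 for ASMM10UP and 1.21 for ASMM10P. Ranges of single ASMM10UP probes ran from 0.30 to 5.73, with 82 of 215 under 1 and 44 (20.5%) over 2, a share of 17.2% in ASMM10P. Probes with neighboring numbers had weakly related mean levels (Pearson r = 0.17 across 922 pairs of neighbors, as a description) and those 2 numbers apart had an r of −0.0025 over 921 pairs.

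The 8 brightest ASMM10UP probes, by mean level over the 12 arrays, were ASMM10UP849, ASMM10UP054, ASMM10UP450, ASMM10UP900, ASMM10UP554, ASMM10UP687, ASMM10UP449 and ASMM10UP075, with means from 6.26 down to 4.98. ASMM10UP849 was at 6.20, 6.60 and 6.13 in TG vehicle, 6.00, 5.89 and 6.20 in TG ISO, 6.11, 6.73 and 6.08 in DTG vehicle and 6.30, 6.14 and 6.79 in DTG ISO. All 4 groups overlapped. ASMM10UP687 was among the steadiest of all members, from a lowest level of 5.12 in TG vehicle 2 to a highest of 5.56 in DTG vehicle 1. ASMM10UP900 and ASMM10UP075 varied most within the 8, with ranges of 2.36 and 2.15. ASMM10UP900 stood at 5.19, 4.79 and 4.33 in TG vehicle, 5.20, 5.93 and 4.49 in TG ISO, 5.23, 4.73 and 6.60 in DTG vehicle and 6.36, 6.69 and 5.68 in DTG ISO. DTG vehicle 3 was as high as the DTG ISO arrays in this probe, and the other DTG vehicle arrays were not. For ASMM10UP075 the low arrays were TG vehicle 3 (3.82), TG ISO 1 (3.95) and TG ISO 2 (4.24), and the remaining 9 lay between 4.60 and 5.97.

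The other 4 of the brightest members varied by less than 1 on the log2 scale over the 12 arrays. ASMM10UP054 ran between 5.53 and 6.08, ASMM10UP450 between 5.01 and 5.97, ASMM10UP554 between 4.75 and 5.70 and ASMM10UP449 between 4.55 and 5.31. In ASMM10UP554 the 3 DTG ISO arrays (5.10, 5.07 and 5.17) and DTG vehicle 3 (4.75) were below the other 8 arrays, which lay between 5.49 and 5.70. The steadiest members lay at high, middle and low levels. The 5 narrowest ranges belonged to ASMM10UP392 (range 0.30, mean level 3.15), ASMM10UP557 (0.36, 4.43), ASMM10UP268 (0.38, 0.52), ASMM10UP687 (0.44, 5.35) and ASMM10UP907 (0.46, −1.99).

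In 4 of the 5 probes with the widest ranges, the 4 arrays of scan 1 were the highest. ASMM10UP148, with the widest, was the exception. It was at 1.37, 1.27 and −2.68 in TG vehicle, −1.08, −0.60 and 0.71 in TG ISO, 1.78, 0.92 and 2.06 in DTG vehicle and 2.65, 3.05 and 1.07 in DTG ISO. TG vehicle 3 was its lowest array and DTG ISO 2 its highest. ASMM10UP432 was at −1.07, −3.19 and −2.20 in TG vehicle, −2.81, −2.21 and −3.51 in TG ISO, −1.78, −2.82 and 1.76 in DTG vehicle and 1.52, 0.79 and 1.00 in DTG ISO. DTG vehicle 3 was its highest array, above the DTG ISO group, while DTG vehicle 1 and 2 lay within the range of the TG arrays. ASMM10UP703, ASMM10UP881 and ASMM10UP674 had the same 4 highest arrays. In ASMM10UP703 these were at 0.54, −0.99 and −0.60 in DTG ISO and −0.03 in DTG vehicle 3, and the other 8 were at −2.30 or lower. In ASMM10UP881 the scan 1 arrays were between 0.49 and 2.85 and the other 8 between −1.91 and −0.13. In ASMM10UP674 they were between −0.65 and 0.60 and the other 8 between −3.53 and −1.21. DTG ISO and scan 1 can be told apart in these probes only through DTG vehicle 3.

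Some pairs of members moved closely together over the 12 arrays. Among the 22366 pairs of probes measured on all arrays the median Pearson r was −0.01. The 3 highest were ASMM10UP246 with ASMM10UP412 (r = 0.985), ASMM10UP051 with ASMM10UP748 (r = 0.974) and ASMM10UP024 with ASMM10UP703 (r = 0.973). These are descriptions of the same 12 RNA samples and scans, picked as the highest of all pairs. ASMM10UP246 was lowest in TG vehicle 3 (−1.45), TG ISO 2 (−1.05) and TG ISO 1 (−1.01), and between −0.74 and 0.37 on the other 9 arrays. ASMM10UP412 had the same 3 lowest arrays at −3.88, −3.57 and −3.77, against −3.29 to −2.12 elsewhere. ASMM10UP051 and ASMM10UP748 were lowest on these 3 arrays too. In ASMM10UP748 they were at 0.09, −0.06 and 0.40, and the other 9 lay between 1.09 and 1.78. ASMM10UP024 was highest on the 4 arrays of scan 1, between −0.19 and −0.05, with −0.58 or less on the others.

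Group comparisons of the class as a whole were limited by the 3 arrays per group, for which an exact permutation test cannot give a p below 0.1. DTG ISO had the highest share of detected ASMM10UP probes, 48.1% ± 7.24 (SD, n = 3), followed by DTG vehicle at 39.9% ± 5.78, TG ISO at 35.9% ± 4.49 and TG vehicle at 35.5% ± 7.57. Neighbors in this order overlapped in their arrays. The difference of DTG ISO from TG ISO was 12.2 percentage points, with no overlap (exact permutation p = 0.1, two-sided, 0.4 after adjustment over 4 comparisons). ASMM10P probes differed by 9.22 points in the same comparison. The exact permutation p was 0.2 for the 8.23 points between DTG ISO and DTG vehicle, 0.5 for the 4.44 points between DTG vehicle and TG vehicle and 1 for the 0.47 points between TG ISO and TG vehicle. Without TG vehicle 3 and TG ISO 3 the last of these was 5.58 points, and the difference of DTG ISO from TG ISO was 9.62 points. The floor of the arrays differed as well, as the dimmest detected signal lay at −3.24 in TG vehicle 1, the array with fewest detections, and at −5.77 in DTG ISO 3, the array with most. The part of this floor in the group differences was not tested. When a probe was instead counted as detected above the median signal of its array, DTG ISO was 1.19 points below TG ISO.

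The median level of the class was −5.26 ± 0.12 (SD, n = 3) in DTG ISO, −5.58 ± 0.25 in DTG vehicle, −5.63 ± 0.23 in TG vehicle and −5.81 ± 0.02 in TG ISO. DTG ISO exceeded TG ISO by 0.55 on the log2 scale without overlap (exact permutation p = 0.1, two-sided, 0.267 after adjustment over 4 comparisons), while the median of ASMM10P probes was higher by 0.12 (exact permutation p = 0.1). For ASMM10UP this difference was 0.21 in the authors' values, 0.0085 after quantile normalization and −0.24 after normexp. The other 3 differences had exact permutation p-values of 0.2 to 0.8. In whole ventricle, fewer cells of a type and less RNA per cell cannot be told apart. As most members lie near the array floor, these medians describe dim spots more than abundant transcripts.

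Single probes were compared with limma, over all 45154 probes tested on the array. After Benjamini-Hochberg adjustment over those probes, 0 of 444 ASMM10UP probes passed 0.05 in each of the 4 pairwise comparisons and in the interaction of genotype and treatment. Over all probes the share called was 0% in every comparison but DTG vehicle with TG vehicle, where it was 0.00443%, or 2 probes, both outside this class. At an unadjusted limma p under 0.05, the ASMM10UP counts were 19 for TG ISO with TG vehicle, against 1.83% of all probes, and 25 for DTG ISO with DTG vehicle, against 5.84%. They were 31 for DTG vehicle with TG vehicle, against 5.22%, 137 for DTG ISO with TG ISO, against 26.8%, and 26 for the interaction, against 4.37%. As shares of 444 these are 4.28%, 5.63%, 6.98%, 30.9% and 5.86%. DTG ISO with TG ISO had the highest share and TG ISO with TG vehicle the lowest, both in the class and over the whole array. The median log2 difference of the 444 probes was −0.0014, 0.06, 0.07, 0.15 and 0.10 in the same order of comparisons, and over all probes tested it was −0.0071, 0.04, 0.04, 0.12 and 0.05. These small medians moved with the scaling. For the class they were 0.0090, −0.033, 0.07, 0.03 and −0.036 after quantile normalization, 0.0095, −0.034, 0.05, 0.03 and −0.028 in the authors' values and −0.069, −0.090, −0.073, −0.11 and −0.027 after normexp. Over all probes they were −0.0053, −0.019, 0.03, 0.05 and −0.012 after quantile normalization, −0.0067, −0.018, 0.03, 0.05 and −0.0077 in the authors' values and −0.054, −0.076, −0.057, −0.078 and −0.023 after normexp. The methods' t-test called 9 ASMM10UP probes after adjustment for DTG ISO with TG ISO, against 2.39% of all probes, and 0 in the other 3 pairwise comparisons. Without adjustment and with a change of at least 1.5-fold, it called 7 ASMM10UP probes for TG ISO with TG vehicle, against 0.718% of all probes, and 15 for DTG ISO with DTG vehicle, against 2.08%. It called 13 for DTG vehicle with TG vehicle, against 1.36%, and 110 for DTG ISO with TG ISO, against 19.9%. Probes detected in DTG ISO alone made up 4 of the 15 and 4 of the 110.

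Single arrays moved several of these unadjusted counts by more than 1.5-fold. For TG ISO with TG vehicle, the limma count of 19 became 57 without TG vehicle 3, against 12.6% of all probes, and 30 without TG ISO 3, against 8.37%. For DTG ISO with DTG vehicle, the 25 became 71 without DTG vehicle 3, against 15.3%, and 11 without either DTG vehicle 1 or DTG vehicle 2, against 1.67% and 2.80%. For DTG vehicle with TG vehicle, the 31 became 53 without TG vehicle 2, against 7.90%, 19 without TG vehicle 3, against 3.20%, and 16 without DTG vehicle 3, also against 3.20%. For the interaction, the 26 became 75 without TG vehicle 3, 39 of them higher, against 11.3%, 56 without DTG vehicle 3, against 11.0%, and 16 without DTG vehicle 1, against 2.04%. The share over all probes moved in the same direction as the class each time. For DTG ISO with TG ISO the total stayed within 1.5-fold, but its 35 lower probes became 22 without TG ISO 1 and 19 without TG ISO 2, both against 5.06% of all probes, and 53 without TG ISO 3, against 14.6%. Among the small counts of lower probes, the 10 for TG ISO with TG vehicle became 5 without TG ISO 2, against 0.631%, and the 6 for DTG ISO with DTG vehicle became 11 without TG vehicle 3, against 2.41%. The 7 for the interaction, against 1.61%, became 4 without DTG ISO 1, against 1.11%. Without TG ISO 1 they became 11, whereas the share over all probes fell to 1.21%.

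In TG mice, 9 ASMM10UP probes were higher with ISO at an unadjusted limma p under 0.05, against 0.986% of all probes, and 10 were lower, against 0.846%. Of the probes under 0.05, 10 of 15 were higher after quantile normalization, 9 of 15 in the authors' values and 2 of 3 after normexp, with 60.3%, 59.3% and 57.7% higher over all probes. By the methods' t-test 10 of 12 were higher, with 54.3% over all probes. Of the members detected on all arrays 2 were under 0.05, 1 in each direction, against 1.06% of all such probes. Arrays did not overlap in 15 probes higher in TG ISO, against 2.25% of all probes in that direction, and in 10 lower, against 2.31%. ASMM10UP706 had the lowest p. It was at −4.42, −4.72 and −3.63 in TG vehicle, detected on 2 of 3 arrays, and at −3.21, −2.86 and −3.28 in TG ISO, detected on all. The groups did not overlap and differed by 1.14 (SE 0.29, limma adjusted p = 0.999). The difference was 1.54 without TG vehicle 3 and TG ISO 3 (adjusted p = 0.00526). ASMM10UP021 was detected on 0 of 3 TG vehicle arrays and 2 of 3 TG ISO arrays, at least 1.03-fold higher in TG ISO (adjusted p = 0.999). Over TG vehicle 1 and 2 and TG ISO 1 and 2 the bound was 1.01-fold, with an adjusted p of 0.0353 within scan 2 and 0.0653 in the fit of 10 arrays that left out TG vehicle 3 and TG ISO 3. ASMM10UP443 was at −5.10, −6.28 and −3.75 in TG vehicle and −2.84, −2.79 and −4.07 in TG ISO. TG vehicle 3 and TG ISO 3 overlapped in this probe and the other arrays did not. Of the 3 leading probes in the other direction, ASMM10UP774 and ASMM10UP833 were detected on 1 of 3 TG vehicle arrays and 0 of 3 TG ISO arrays, and ASMM10UP648 on no TG array, so a change within TG could not be sized in ASMM10UP648. ASMM10UP774 was called without TG vehicle 3 and TG ISO 3 (adjusted p = 0.0135).

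Without TG vehicle 3 and TG ISO 3, which lie with other groups, the adjusted limma p was under 0.05 for 63 ASMM10UP probes in TG ISO with TG vehicle, 39 higher and 24 lower, against 17.1% of all probes. The share within the class was 14.2%. Among probes at an unadjusted limma p under 0.05 in this fit, 56.7% in the class and 49.2% over all probes were higher. Leaving out arrays for their likeness to another group raises such counts by construction, so they are not a test of ISO. Within scan 2, with TG ISO 1 and 2 against TG vehicle 1 and 2, 29 ASMM10UP probes were called, against 7.74% of all probes. These fits compare the same arrays, and 21 probes were called in both, which is 33.3% of the 63 and 72.4% of the 29. ASMM10UP443 was called in both of these fits (adjusted p = 0.00269 and 0.032). It was not detected in TG vehicle 1 or 2, which sets only a bound, at least 2.37-fold higher in TG ISO 1 and 2. Of the probes described above for their level, range or correlation, ASMM10UP148, ASMM10UP051, ASMM10UP748 and ASMM10UP075 were called lower in TG ISO without TG vehicle 3 and TG ISO 3 (differences of −2.16, −1.21, −1.13 and −1.10, adjusted p from 0.0134 to 0.0396), and ASMM10UP148 within scan 2 as well (adjusted p = 0.0249).

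In DTG mice, 19 ASMM10UP probes were higher in DTG ISO than in DTG vehicle at an unadjusted p under 0.05, against 3.95% of all probes, and 6 were lower, against 1.89%. This split moved with the scaling, to 12 higher of 27 after quantile normalization, 16 of 31 in the authors' values and 6 of 14 after normexp. Over all probes it moved likewise, from 67.7% higher to 48.5%, 51.1% and 42.1%. Among the 215 members detected on all arrays, 1 was higher and 5 were lower, whereas 48.7% of all such probes under 0.05 were higher. With scan as a block 7 members were under 0.05, 5 of them higher, against 1.19% of all probes. Non-overlap was seen in 32 higher, against 7.14% of all probes, and in 30 lower, against 5.9%. The leading probes in the higher direction were dim ones, detected on every DTG ISO array and on no DTG vehicle array. ASMM10UP127 stood at −3.42, −3.72 and −3.57 in DTG ISO and at −6.48, −7.14 and −5.81 in DTG vehicle. It was not detected on any TG array either, and was at least 2.14-fold higher in DTG ISO than in DTG vehicle (limma adjusted p = 0.817). Without DTG vehicle 3 it was at least 1.90-fold higher (adjusted p = 0.0396). ASMM10UP814 was at −3.96, −4.42 and −4.07 in DTG ISO and −5.54, −5.28 and −5.03 in DTG vehicle, at least 1.43-fold higher (adjusted p = 0.817), or 1.28-fold without DTG vehicle 3 (adjusted p = 0.0459). ASMM10UP904 was at least 1.19-fold higher (adjusted p = 0.817), but normexp gave a log2 difference of −0.0022. In all, 7 ASMM10UP probes (0.758%) were detected on 3 of 3 DTG ISO arrays and 0 of 3 DTG vehicle arrays, 0 the other way around, compared with 0.273% and 0% of all probes. ASMM10UP127 and ASMM10UP904 were among 5 members detected on the 3 DTG ISO arrays alone. Such probes entered the test through the group in which they are high. Of the 19 higher probes 4 were of this kind, and the remaining 15 compare with 3.84% of all probes counted in the same way.

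The leading probes that were lower in DTG ISO were ASMM10UP887, ASMM10UP212 and ASMM10UP156. ASMM10UP887, detected on all 12 arrays, was at −4.39, −4.31 and −3.66 in DTG ISO and −2.42, −2.33 and −3.69 in DTG vehicle. DTG vehicle 3 fell within the DTG ISO range, and the difference was −1.31 (SE 0.35, limma adjusted p = 0.817). Without DTG vehicle 3 it was −1.74 (adjusted p = 0.023). ASMM10UP212 was lower by 0.82 with no overlap, at −3.06, −3.15 and −3.94 in DTG ISO and −2.27, −2.91 and −2.51 in DTG vehicle (−0.82, SE 0.32, adjusted p = 0.817). ASMM10UP156 was erratic, from −5.81 in DTG ISO 3 to 2.32 in DTG vehicle 3. Leaving out DTG vehicle 3, the only vehicle array in scan 1, gave 10 ASMM10UP calls in this comparison, against 1.78% of all probes, or 8 against 1.76% without probes detected in DTG ISO alone. ASMM10UP432, described above for its range, was among them (difference 3.41, adjusted p = 0.0325). Scan 1 held 1 DTG vehicle array, too few for a test within it.

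Between the vehicle groups, which differ in the miR-150 transgene, 24 ASMM10UP probes were higher in DTG at an unadjusted p under 0.05, against 4.09% of all probes, and 7 were lower, against 1.14%. The higher share was 18 of 27 after quantile normalization, 21 of 29 in the authors' values and 2 of 8 after normexp, with 75.1%, 74.8% and 47.3% higher over all probes and 78.3% in the fit above. Of the members detected on all arrays, 2 were higher and 3 lower, compared with 71.1% higher over all such probes. The scan block left 15 members under 0.05, 8 of them higher, against 2.27% of all probes. Non-overlap was found in 33 higher, against 5.23% of all probes, and in 9 lower, against 2.49%. ASMM10UP122 was at −4.21, −3.90 and −3.22 in DTG vehicle and −5.18, −4.58 and −5.10 in TG vehicle (difference 1.18, SE 0.29, limma adjusted p = 0.863). It was detected on 2 of 3 DTG vehicle arrays and 1 of 3 TG vehicle arrays. ASMM10UP766 was at −2.38, −2.43 and −2.21 in DTG vehicle and −3.26, −2.84 and −2.93 in TG vehicle (difference 0.67, SE 0.19, adjusted p = 0.863), detected on all 3 and on 2, respectively. The groups did not overlap in either probe. ASMM10UP733 was detected on 1 DTG vehicle array and on no TG vehicle array, with no fold to give. In the lower direction, ASMM10UP200 was the leading probe and was detected on all 12 arrays. It was at −1.91, −2.09 and −2.45 in DTG vehicle and −1.47, −1.29 and −0.88 in TG vehicle (difference −0.93, SE 0.25, adjusted p = 0.863). Its DTG ISO levels, −1.80, −2.24 and −2.10, were also below all 6 TG arrays. ASMM10UP185 and ASMM10UP499 were lower by 1.44 and 1.14, respectively (−1.44 and −1.14, adjusted p = 0.863), without overlap, and were detected on 2 and 1 of the 3 DTG vehicle arrays. Within scan 2, DTG vehicle 1 and 2 with TG vehicle 1 and 2 gave 0 ASMM10UP calls, with 19 at an unadjusted limma p under 0.05, against 3.13% of all probes.

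The comparison of genotypes under ISO held the most ASMM10UP probes below an unadjusted p of 0.05. Of the 137, 102 were higher in DTG ISO than in TG ISO, against 16.8% of all probes, and 35 lower, against 9.98%. The 102 include the 5 members detected in DTG ISO alone, and the other 97 compare with 16.7% of all probes counted without such probes. The lowest adjusted limma p in the class was 0.0713. Non-overlap was found in 123 higher, against 23.7% of all probes, and 57 lower, against 14.1%. The split depended on the scaling, with 76 higher of 129 after quantile normalization (25.1% of all probes in either direction), 75 of 129 in the authors' values (25.6%) and 42 of 106 after normexp (25.4%). Over all probes 53.6%, 54.2% and 35.7% of those were higher, from 62.7% in the fit above. Among the 215 members detected on all arrays it was 33 higher and 30 lower of 63, against 26.9% of all probes detected on all arrays. Of all probes detected on all arrays and under 0.05, 50.2% were higher, so the whole array moved in the same way under this filter. Detection is set by the same levels that are compared, so this filter is no independent check of the split. DTG ISO was in scan 1 and TG ISO in scans 2 and 3, so genotype under ISO was tied to scan. With scan as a block, an estimate that rests on DTG vehicle 3 as the link, 6 ASMM10UP probes had an unadjusted p under 0.05, against 1.58% of all probes.

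Detection leaned the same way, but it is set by the same levels and is no independent support. The dimmest detected signal was −4.74, −5.05 and −5.77 in DTG ISO and −4.83, −4.69 and −3.83 in TG ISO. The part of this floor in the counts below was not tested. When members were counted above the median signal of the array, DTG ISO minus TG ISO was −1.19 points. There were 39 ASMM10UP probes (4.23%) detected on all DTG ISO arrays and no TG ISO array, and 0 the other way around, compared with 2.84% and 0.00821% of all probes. ASMM10UP146 had the largest bound. It was between −2.14 and −1.84 in DTG ISO and at −7.07, −6.62 and −5.21 in TG ISO, at least 5.47-fold higher in DTG ISO (limma adjusted p = 0.0713). DTG vehicle 3, at −1.74, was above the DTG ISO arrays, whereas DTG vehicle 1 and 2 were at −5.29 and −4.47. ASMM10UP693 was at least 3.28-fold higher in DTG ISO (adjusted p = 0.0846) and was at −2.45 in DTG vehicle 3, with −5.06 and −4.49 in DTG vehicle 1 and 2. ASMM10UP020 was at −3.40, −3.26 and −2.58 in DTG ISO and −5.36, −6.84 and −4.93 in TG ISO, at least 2.58-fold higher (adjusted p = 0.0713). ASMM10UP648 and ASMM10UP013 were at least 1.23-fold and 1.2-fold higher (adjusted p = 0.0713 for both), but for ASMM10UP013 normexp gave a log2 difference of −0.060. Across all groups, 5 members were detected on all 3 DTG ISO arrays and on none of the other 9 (0.542%, compared with 0.117% of all probes), and 0 members and 0 probes in all had this pattern in any other group.

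Of the 3 probes with the lowest p among those lower in DTG ISO than in TG ISO, 2 were detected on all 12 arrays. ASMM10UP887, described above, was at −2.72, −2.67 and −2.27 in TG ISO, above each DTG ISO array (difference −1.56, SE 0.35, limma adjusted p = 0.0747). ASMM10UP451 was at −3.36, −3.26 and −3.64 in DTG ISO and −2.45, −1.99 and −2.69 in TG ISO (difference −1.04, SE 0.25, adjusted p = 0.0775). In ASMM10UP451 the DTG vehicle arrays (−2.84, −3.04 and −3.11) fell between the 2 ISO groups. ASMM10UP564 was detected on 2 of 3 TG ISO arrays and no DTG ISO array, at least 2.16-fold lower in DTG ISO (adjusted p = 0.0771).

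Adjusted calls in this comparison ranged widely with the choice of arrays and of fit. With only the DTG ISO and TG ISO arrays in the fit, 57 ASMM10UP probes were called, 49 of them higher, against 8.99% of all probes. The share in the class was 12.8%. Among probes at an unadjusted limma p under 0.05 in this fit, 71.7% in the class and 63.8% over all probes were higher. Without the probes detected in DTG ISO alone, 53 were called, or 12.1%, against 8.93%. Without TG vehicle 3 and TG ISO 3, 138 were called, 85 higher and 53 lower, against 30.6% of all probes, and the share in the class was 31.1%. Among probes at an unadjusted limma p under 0.05 in that fit, 62.6% in the class and 58.4% over all probes were higher. As for TG ISO with TG vehicle, leaving out these arrays raises such counts by construction. Leaving out DTG vehicle 3 gave 41 calls against 6.65%, TG vehicle 3 gave 49 against 6.44%, and TG ISO 3 gave 15 against 4.15%. Leaving aside the probes detected in DTG ISO alone, these counts were 134, 37, 45 and 13, against 30.6%, 6.59%, 6.38% and 4.11%. Neither DTG vehicle 3 nor TG vehicle 3 belongs to the groups compared, so in these fits only the estimate of the spread changed. ASMM10UP146 was called in all 5 fits, with adjusted p from 0.00394 to 0.0495, and its bound was at least 6.78-fold without TG ISO 3. Its adjusted p was 0.998 with scan as a block and 0.0975 after normexp. The other probes named for this comparison, ASMM10UP693, ASMM10UP020, ASMM10UP648, ASMM10UP013, ASMM10UP887, ASMM10UP451 and ASMM10UP564, were also called in these fits, except that ASMM10UP693, ASMM10UP887 and ASMM10UP564 were not called without TG ISO 3 alone. Their adjusted p without TG vehicle 3 and TG ISO 3 together ran from 0.00258 in ASMM10UP020 to 0.0281 in ASMM10UP887. Of the 22 probes described above for their level, range or correlation, 4 were called with the compared groups alone, 5 without DTG vehicle 3, 5 without TG vehicle 3 and 9 without TG vehicle 3 and TG ISO 3, all higher in DTG ISO. ASMM10UP432 and ASMM10UP703 were among these in each of the 4 fits, but leaving out TG ISO 3 alone called 0 of the 22. All 22 were picked for their level, range or correlation over the same arrays. These calls, and theirs in the other comparisons, are thus not independent of that choice.

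The response to ISO was not shown to differ between genotypes in any single ASMM10UP probe. For the interaction, the lowest adjusted limma p in the class was 0.927. There were 19 probes higher at an unadjusted p under 0.05, against 2.76% of all probes, and 7 lower, against 1.61%. Without the 5 members detected in DTG ISO alone, 15 were higher, against 2.69% of all probes counted likewise. The counts turned to 13 higher of 33 after quantile normalization, 15 of 35 in the authors' values and 2 of 6 after normexp, and over all probes from 63.2% higher to 45.8%, 47.5% and 41.2%. They were 1 higher and 4 lower among members detected on all arrays, compared with 46.8% higher over all such probes, and 5 higher of 8 with scan as a block, against 1.61% of all probes under 0.05. ASMM10UP814, ASMM10UP648 and ASMM10UP131 had the lowest p among the higher probes (adjusted p = 0.927 for each). Each had a group with no detected array, so the size of the interaction was not measured. ASMM10UP814 was detected on no TG ISO or DTG vehicle array, and its TG ISO levels of −5.32, −5.08 and −5.74 overlapped the TG vehicle levels of −5.03, −5.09 and −4.75. ASMM10UP131 was 1 of the members detected in DTG ISO alone, at −4.18, −3.62 and −4.72, and entered the test through that group. In the other direction were ASMM10UP564, ASMM10UP021 and ASMM10UP887, each with an adjusted p of 0.927. Of these only ASMM10UP887 was detected in all groups, with an interaction of −1.40. Without TG vehicle 3 and TG ISO 3, 40 ASMM10UP probes were called, 18 higher and 22 lower, against 8.94% of all probes. Among probes at an unadjusted limma p under 0.05 in this fit, 47.3% in the class and 51.9% over all probes were higher. Leaving aside the probes detected in DTG ISO alone, 38 were called, against 8.91%. The 40 included ASMM10UP748, ASMM10UP051 and ASMM10UP075, with interactions of 1.36, 1.33 and 1.48 (adjusted p = 0.0334, 0.0409 and 0.0415), and also ASMM10UP814 and ASMM10UP648 (adjusted p = 0.0388 and 0.0404), whose size was not measured. TG vehicle 3, which was left out, was among the lowest arrays of ASMM10UP748, ASMM10UP051 and ASMM10UP075. Leaving out arrays for their likeness to another group raises counts of calls by construction. These calls are therefore not a test of the interaction. In 4 probes, 0.907% of those measured on all arrays, the arrays of ISO and vehicle did not overlap in either genotype and lay in opposite directions, against 0.472% of all probes.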

How the data were processed

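For each array the authors deposited Feature Extraction 11.0.1.1 output. The deposited intensity is a processed signal from which background was subtracted within each array, as the headers state. The authors also deposited log2 values normalized by a method not given in the sources used here, which served as an alternative. Flags for bright, saturated and outlying spots came with the intensity values. Here, the log2 processed signal minus the 75th percentile of the array was used, spots flagged as outliers were left out, and any probe detected on 3 or more of 12 arrays was tested with limma 3.58.1 in R 4.3.3 (4 group means, 8 residual degrees of freedom, Benjamini-Hochberg adjustment over all probes tested). A spot was left out on at least 1 array for 8 members. A probe below background on all arrays of a group was given a bound, "at least N-fold": the mean of the brighter group against, on each array of the dim group, the higher of its own level and the lowest detected level. Shares and median levels were compared by exact permutation tests. The fit was also run on simulated data with known shifts, and the outcome is not given here. 0 sample columns were left unused, and the number of arrays limits the precision. P-values measure the spread between mice, 1 array each, and do not cover the choice of probes.

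Members are the probes with the ASMM10UP prefix. They and all lists and tests were chosen with earlier results of these data known. Named probes are the 8 brightest, the 3 with the lowest p in each direction of each comparison, the 5 widest and 5 narrowest in range and the 3 most correlated pairs among those detected on all arrays, and the 2 with the largest bound in each comparison among those detected on 3 of 3 arrays of 1 group and 0 of 3 of the other. Probes whose groups separated in opposite directions were added after their values were seen, as were fits within a scan. Differences in class detection without TG vehicle 3 and TG ISO 3 were not planned either.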

Additional observations from a re-analysis of the deposited data

Results flagged for a closer look

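In 4 of the tested ASMM10UP probes, 0.907% of those measured on all arrays compared with 0.472% of all probes, the arrays of ISO and vehicle did not overlap in either genotype and the differences ran in opposite directions. The interaction did not pass adjustment in any of them (limma adjusted p = 0.927 for each). ASMM10UP282 was lower with ISO in TG (−0.41 on the log2 scale) and higher in DTG (0.44), and its 3 DTG ISO arrays were its highest. ASMM10UP766 was higher with ISO in TG (0.34) and lower in DTG (−0.30). ASMM10UP683, the only one detected on all 12 arrays, was higher with ISO in TG (0.17) and lower in DTG (−0.29). The signals of ASMM10UP833 were lower with ISO in TG (−1.30) and higher in DTG (0.40), but neither value is a measured change, as no TG ISO array and no DTG vehicle array was above background. It was detected on 1 TG vehicle and 3 DTG ISO arrays, at least 1.02-fold lower with ISO in TG and with no bound in DTG.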

How the results depend on the processing

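The lower detection and level of ASMM10UP against ASMM10P kept their direction and their side of 0.05 under every alternative run. Without single arrays the detection difference was −29.0 to −28.4 points and the level difference −2.95 to −2.90. Larger moves came from other settings, with a level difference of −0.81 with normexp, −0.90 among probes detected on all 12 arrays and −2.26 with the mean, and a detection difference of −22.2 points with the flag for signals above background. Group differences of the class could not reach 0.05 with 3 arrays a group, and some changed sign. Counting probes above the median signal of the array gave −0.47 points for DTG ISO with DTG vehicle and for DTG vehicle with TG vehicle, and −1.19 for DTG ISO with TG ISO. For the level, DTG ISO with DTG vehicle became −0.031 with quantile normalization, −0.21 with normexp, −0.028 in the authors' values and −0.043 with the mean. DTG vehicle with TG vehicle became −0.0064, −0.14, −0.0033 and −0.12 in the same order, and DTG ISO with TG ISO −0.24 with normexp and −0.060 with the mean. Without single arrays, TG ISO with TG vehicle ran from −3.88 to 3.05 points in detection and from −0.26 to −0.05 in level, and DTG vehicle with TG vehicle from 0.09 to 7.49 points and from −0.083 to 0.18. It was 4.19 to 11.2 points and 0.20 to 0.46 for DTG ISO with DTG vehicle, and 8.16 to 15.1 points and 0.48 to 0.60 for DTG ISO with TG ISO.

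ASMM10UP calls, 0 in the fit reported, stayed 0 in 115 of 129 alternatives. The methods' t-test, unadjusted with a change of at least 1.5-fold, gave 7 for ISO against vehicle in TG and 15 in DTG, and 13 for DTG against TG under vehicle and 110 under ISO (0.718%, 2.08%, 1.36% and 19.9% of all probes). Adjusted, it gave 9 in the last. Fitting the compared groups alone gave 57 there. Without TG vehicle 3 and TG ISO 3 the calls were 63 for TG ISO with TG vehicle, 138 for DTG ISO with TG ISO and 40 for the interaction, and within scan 2 they were 29 for TG ISO with TG vehicle. Without single arrays they ran from 0 to 10 for DTG ISO with DTG vehicle, from 0 to 49 for DTG ISO with TG ISO and were 0 for the other 3. Of the named differences, ASMM10UP904 between the DTG groups became −0.0022 and ASMM10UP013 between the ISO groups −0.060 with normexp, and no other changed sign. With the replicate number as a block 0 ASMM10UP probes were called in each comparison. Same-numbered arrays did not deviate together, with correlations of −0.77 to 0.18, so the numbers were not read as pairs. Slide as a block was not run, because slides are not given in the sources used here. Most members lie near background, which limits what the arrays can show.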
